A study of Mus musculus with 13 samples.

Results

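The tripeptide glutathione is the main thiol antioxidant of cells, and 8 genes of its supply, synthesis, recycling and breakdown, together with 2 classical targets of the transcription factor NRF2, were followed in mouse brown adipose tissue, whose mitochondria produce heat. The members were the rows of the deposited table that carry the symbols Cbs, Cth, Slc7a11, Gclc, Gclm, Gss, Gsr, Chac1, Hmox1 and Nqo1, 10 of 55357 genes, and 8 of them were among the 11073 genes with enough counts to be tested. Messenger RNA was counted by 3′ end sequencing in 13 libraries. Control mice carried floxed Stim1 and Stim2 alleles (Stim1/2_fl/fl), and knockout mice (KO, Stim1/2_Adp-Cre) lost both genes, which encode proteins that sense the calcium content of the endoplasmic reticulum, in adipocytes through Cre driven by the adiponectin promoter. Mice stayed at room temperature (RT) or were kept at 4 °C for 6 h (cold), with 4 libraries of control cold, 4 of KO cold, 2 of control RT and 3 of KO RT. All carry the same batch label, the labels used here give no ages, and they do not say that libraries of a group came from separate animals. The p-values therefore measure only the spread between these libraries, which may be technical. Other cells of the tissue than adipocytes keep both genes.

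Glutathione is built from glutamate, cysteine and glycine in a pair of ATP-dependent steps, and cysteine is usually the scarce part. Cysteine comes from methionine through the transsulfuration enzymes encoded by Cbs and Cth, or from cystine brought into the cell by the exchanger encoded by Slc7a11. NRF2, a factor that is held back by KEAP1 until oxidants or electrophiles release it, acts on Gclc, Gclm, Slc7a11, Hmox1 and Nqo1, while ATF4, the factor of the integrated stress response, acts on Chac1, Cth and Slc7a11.

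Promoter sequences of 6 of the 10 members were held in the RefSeq table of build GRCm38.p6 (Cbs, Chac1, Gclm, Gss, Nqo1 and Slc7a11), and the 250 bases before each start were searched on both strands. The core of the C/EBP-ATF response element, TGATGCAA (TTGCATCA on the opposite strand), was in the windows of 2 of the 6, Chac1 and Slc7a11, against 0.791% of 32851 windows of the same length. These 2 windows are shown because both genes were at or near 0 CPM in all RT libraries and their levels moved together. They are printed 5′ to 3′ on the gene's strand, with the matches in capitals, for Chac1 at chr2:119350992-119351241 (plus strand) and Slc7a11 at chr3:50443614-50443863 (minus strand).
Chac1: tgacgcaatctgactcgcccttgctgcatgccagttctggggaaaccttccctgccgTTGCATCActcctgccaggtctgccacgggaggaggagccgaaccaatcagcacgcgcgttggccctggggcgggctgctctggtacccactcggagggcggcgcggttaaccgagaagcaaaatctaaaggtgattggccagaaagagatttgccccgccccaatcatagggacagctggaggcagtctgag
Slc7a11: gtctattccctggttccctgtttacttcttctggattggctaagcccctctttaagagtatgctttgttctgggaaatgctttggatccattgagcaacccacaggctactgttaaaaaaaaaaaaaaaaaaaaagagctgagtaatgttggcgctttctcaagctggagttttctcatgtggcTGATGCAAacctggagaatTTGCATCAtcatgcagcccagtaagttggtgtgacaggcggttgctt
The match in Chac1 lay 193 to 186 bases before the start, and those in Slc7a11 lay 66 to 59 and 47 to 40 bases before it. The core of the antioxidant response element bound by NRF2, TGACNNNGC (GCNNNGTCA on the opposite strand), was in the window of Gclm, 134 to 126 bases before the start, and in no other of the 6, against 10.2% of all windows. A match describes letters only, bases outside these windows were not searched, and no binding was measured here.

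Library totals ran from 1570684 to 2016178 counts (median 1800685), and mean correlations of a library with the others of its group ran from 0.938 to 0.971. Within each temperature the KO libraries lay below the control libraries for Stim1 and for Stim2, with Stim1 at 62.0 to 108 counts scaled to library size (CPM) in KO and 114 to 149.9 CPM in control over both temperatures. Stim2 ran from 13.5 to 29.7 CPM in KO and from 29.0 to 54.5 CPM in control, where KO cold 2 lay above control RT 1. By edgeR, Stim1 did not pass in cold (adjusted p = 0.057) or at RT (adjusted p = 0.349), and Stim2 passed in cold (adjusted p = 0.0382) but not at RT (adjusted p = 1), though the 3′ tags may lie outside the deleted exons. The 10 brown adipocyte markers summed to 24276 to 28321 CPM in control cold and 22703 to 24215 CPM in KO cold, which did not overlap. At RT they summed to 17257 to 19407 CPM in control and 17213 to 19436 CPM in KO, and none was at 0 in any library. Between the genotypes in cold 1 of the 10 passed, higher in KO, with a median log2 change of -0.0082. The part of this sum in the levels of the members was not tested. The 10 skeletal muscle markers summed to 2042 and 111 CPM in control RT and to 1251, 839 and 165 CPM in KO RT, against 47.8 to 291 CPM in the 8 cold libraries. In bulk tissue, fewer cells of a type and less RNA per cell cannot be told apart. Levels are CPM, listed in the order of the replicate numbers, and compare a gene between libraries only. Changes are log2 fold changes from a model of all 13 libraries ± a standard error worked back from its F test. The q is the p adjusted over the 11073 genes tested, with 0.05 as the threshold.

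**Figure D1:**
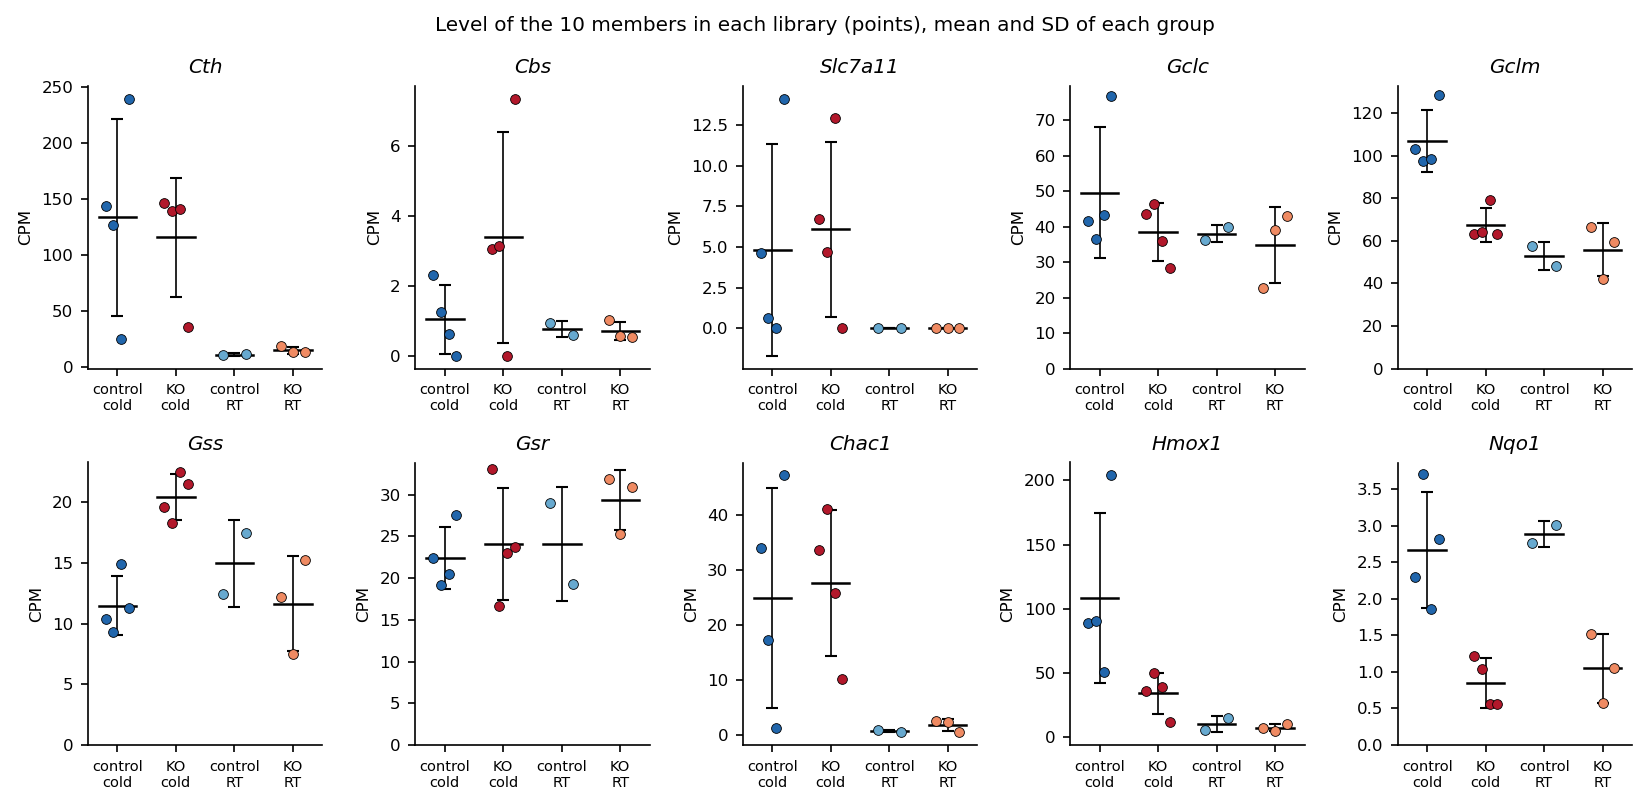
Level of each of the 10 members (y axis, CPM, each panel with its own scale) in the 4 groups (x axis), with 1 point per library and the mean ± SD of the group. The highest levels of Hmox1, Chac1, Cth and Slc7a11 were in cold libraries, Gclm was highest in control cold and Gss was highest in KO cold.

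Genotype in the cold was compared to ask how loss of both calcium sensors changes these genes under thermogenic demand. Of the 8 tested members, Gss was higher in KO, Gclm and Hmox1 were lower, and 5 did not pass. Over all tested genes 5.93% passed, 2.44% higher and 3.49% lower. Of the 4 tested members named above as targets of NRF2, Gclm and Hmox1 were lower, while Gclc and Slc7a11 did not pass. Outside those 4, Gss was higher and Gsr, Chac1 and Cth did not pass.

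Glutamate-cysteine ligase, which carries out the first and rate-limiting step of glutathione synthesis, has a catalytic subunit encoded by Gclc and a modifier subunit, encoded by Gclm, that raises its activity. The modifier gene Gclm has the identifier ENSMUSG00000028124.16 and lies on chromosome 3. Its level was 103.1, 97.6, 98.5 and 128 CPM in the control cold libraries, against 63.0, 64.2, 79.3 and 63.2 CPM in the KO cold libraries. Without cold, controls had 57.5 and 48.2 CPM, while KO had 66.4, 41.9 and 59.3 CPM. Each of the 4 control cold libraries lay above the other 9. The KO RT libraries overlapped with KO cold and with control RT, while KO cold lay above control RT. The step from 107 ± 14.6 CPM in control cold down to 67.4 ± 7.94 CPM in KO cold (SD, n = 4 each) was -0.66 ± 0.15 (q = 0.0154, 1.58-fold), and it passed whichever single library was left out (q up to 0.0481). Without both control cold 3 and KO cold 4, a pair left out after their values were seen, it was -0.67 with q = 0.0539.

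The catalytic gene Gclc (ENSMUSG00000032350.10) lies on chromosome 9. The control cold libraries gave 41.5, 36.5, 43.4 and 76.9 CPM, and those of KO cold gave 43.5, 46.4, 36.0 and 28.2 CPM. In the RT libraries its level was 36.3 and 39.8 CPM for control against 22.8, 39.0 and 43.0 CPM for KO. All 4 groups overlapped, and only control cold 4 stood above the rest. Gclc was at -0.35 ± 0.24 in KO against control in cold (q = 0.448, 95% interval -0.86 to 0.16), an interval that holds the value of Gclm.

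Gss (ENSMUSG00000027610.18, chromosome 2) encodes glutathione synthetase, which adds glycine in the second step. Control cold libraries 1 to 4 held 10.4, 9.27, 14.9 and 11.3 CPM, and the KO cold libraries 1 to 4 held 19.6, 18.3, 22.5 and 21.4 CPM, on 15 to 40 counts per library. RT levels were 12.4 and 17.5 CPM (control) and 12.2, 7.46 and 15.2 CPM (KO). The 4 KO cold libraries lay above the other 9, and the other groups overlapped. The mean of KO cold, 20.4 ± 1.89 CPM, exceeded that of control cold, 11.4 ± 2.42 CPM (SD, n = 4 each), by 0.83 ± 0.23 (q = 0.0406, 1.78-fold). This call was lost when any of control cold 1, 2 and 4, the KO cold libraries and KO RT 1 was left out (q = 0.0540 to 0.105), and with DESeq2 (q = 0.0616). Within the synthesis branch, the modifier subunit and the synthetase lay in opposite directions in the same cold libraries.

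Hmox1 (ENSMUSG00000005413.9, chromosome 8) encodes heme oxygenase, which opens heme to biliverdin, iron and carbon monoxide. Its level was 88.7, 90.2, 50.8 and 204 CPM in the control cold libraries, against 36.1, 49.6, 38.8 and 11.9 CPM in the KO cold libraries. The RT libraries held 5.52 and 14.5 CPM (control) and 7.09, 4.59 and 9.97 CPM (KO). Control cold and KO cold did not overlap, though control cold 3 and KO cold 2 differed by little, and KO cold 4 lay within the range of control RT. The mean was 108 ± 66.3 CPM in control cold against 34.1 ± 15.9 CPM for KO cold (SD, n = 4 each), a difference of -1.65 ± 0.39 (q = 0.0193, 3.15-fold). Without control cold 4, the highest library, it was -1.16 with q = 0.0577. Macrophages also express Hmox1. The 16 macrophage and monocyte markers summed to 160 to 423 CPM over control cold, 172 to 220 CPM over KO cold, 223 to 349.5 CPM in control RT and 188 to 251 CPM in KO RT, with at most 2 of the 16 at 0 in a library. Control cold 4 was second highest of the 8 cold libraries in that sum (284 CPM) and control cold 3 was lowest (160 CPM), and the sums of control cold and KO cold overlapped. Between the genotypes in cold, 0 of the 14 tested macrophage and monocyte markers passed, but all 14 had a negative log2 change, with a median of -0.53. The same held for fibroblast and preadipocyte markers, of which 0 of 8 tested passed and all 8 were negative, with a median of -0.60 against -0.0053 over all genes. Their sum ran from 514 to 1493 CPM in control cold, 560 to 655 CPM in KO cold, 897 to 941 CPM in control RT and 675 to 1364 CPM in KO RT, with none at 0. The median of each list was near the change of Gclm, and the part of these cells in the differences of Gclm and Hmox1 was not tested.

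Nqo1 (ENSMUSG00000003849.9, chromosome 8) encodes a quinone reductase and is a standard readout of NRF2. It had 1 to 6 counts per library and was not tested. The control cold libraries gave 2.30, 3.71, 1.86 and 2.82 CPM, and those of KO cold gave 1.22, 1.04, 0.563 and 0.564 CPM. Without cold, controls had 2.76 and 3.01 CPM, while KO had 1.52, 0.574 and 1.05 CPM. Each of the 7 KO libraries lay below each of the 6 control libraries, and temperature groups of 1 genotype overlapped. Fitted without a filter on low counts it was at -1.58 ± 0.71 in cold (q = 0.287) and -1.37 ± 0.82 at RT (q = 1), so it passed at neither temperature, and a genotype test over both temperatures together was not run.

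**Figure D2:**
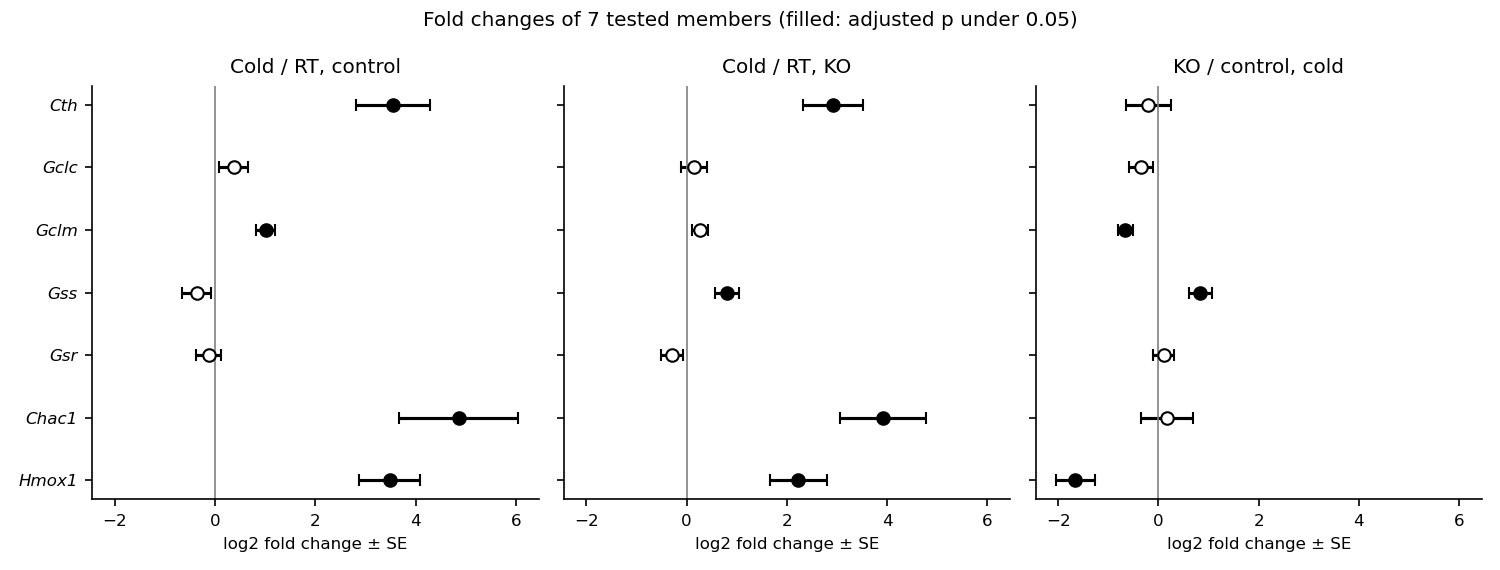
Log2 fold change of 7 tested members (x axis, bars are ± 1 standard error) for the cold response of control mice (left), that of KO mice (middle) and KO against control in cold (right), with filled points for q under 0.05. Slc7a11 is left out because all RT libraries had 0 counts, and the right panel shows Gss above 0 and Gclm and Hmox1 below it.

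Members of cysteine supply and glutathione breakdown spread widely among the cold libraries of both genotypes. Chac1 (ENSMUSG00000027313.4, chromosome 2) encodes a cytosolic enzyme that splits glutathione. Control cold libraries 1 to 4 held 34.0, 17.3, 1.24 and 47.3 CPM, and the KO cold libraries 1 to 4 held 33.7, 41.2, 25.9 and 10.2 CPM. In the RT libraries its level was 0.920 and 0.603 CPM for control against 2.53, 2.30 and 0.525 CPM for KO, on 1 to 5 counts per library. KO against control in cold was 0.17 ± 0.52 (q = 0.893, 95% interval -0.92 to 1.26), and the genotypes overlapped.

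Cth (ENSMUSG00000028179.13, chromosome 3) encodes cystathionine gamma-lyase, which releases cysteine at the end of transsulfuration. Its level was 143, 127, 24.8 and 239 CPM in the control cold libraries, against 146, 139, 141 and 36.1 CPM in the KO cold libraries. RT levels were 10.6 and 12.1 CPM (control) and 18.7, 13.8 and 13.1 CPM (KO), so that each cold library lay above each RT library. KO against control in cold was -0.20 ± 0.44 (q = 0.848, 95% interval -1.14 to 0.74).

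Slc7a11 (ENSMUSG00000027737.11, chromosome 3) encodes the transport subunit of the cystine-glutamate exchanger. The control cold libraries gave 4.61, 0.618, 0 and 14.1 CPM, and those of KO cold gave 6.73, 4.70, 12.9 and 0 CPM on at most 23 counts. All 5 RT libraries were at 0 counts. KO against control in cold was 0.39 ± 0.89 (q = 0.855). Control cold 3 and KO cold 4 were the 2 lowest of the 8 cold libraries for each of Chac1, Cth and Slc7a11. Pearson's r of log2 CPM over the 8 cold libraries was 0.93 for Chac1 with Cth, 0.79 for Chac1 with Slc7a11 and 0.85 for Cth with Slc7a11. These values describe genes read from the same libraries, with Slc7a11 at few counts, and carry no p.

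Cbs (ENSMUSG00000024039.16, chromosome 17) encodes cystathionine beta-synthase, the first step of transsulfuration. It had 0 to 13 counts per library and was not tested. It was at 2.30, 1.24, 0.619 and 0 CPM in control cold, at 3.06, 3.13, 0 and 7.34 CPM in KO cold, at 0.920 and 0.603 CPM in control RT and at 1.01, 0.574 and 0.525 CPM in KO RT. Groups overlapped throughout, and the highest level was in KO cold 4, where Chac1, Cth and Slc7a11 were low for cold. Fitted without a filter on low counts, cold against RT in KO was 2.16 ± 0.76 (q = 0.0427) and KO against control in cold 1.57 ± 0.66 (q = 0.220). The former rests on 24 counts over KO cold, 13 of them in KO cold 4. That fit also called more genes elsewhere, such as 50 against 0 between genotypes at RT.

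Gsr (ENSMUSG00000031584.17, chromosome 8) encodes glutathione reductase, which returns oxidised glutathione to its reduced form with NADPH. It was at 22.5, 19.2, 20.4 and 27.5 CPM in control cold, at 33.0, 16.7, 23.1 and 23.7 CPM in KO cold, at 29.0 and 19.3 CPM in control RT and at 31.9, 25.2 and 31.0 CPM in KO RT. All groups overlapped with their neighbours in order of level, and Gsr passed in none of the 5 contrasts, at 0.10 ± 0.21 in KO against control in cold (q = 0.837, 95% interval -0.35 to 0.56).

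At RT, KO was compared with control to ask whether the genotypes differ before the cold. By edgeR, 0 of the 8 tested members passed, and 0 of them had an unadjusted p under 0.05. Over all genes 0% passed, with 346 genes at an unadjusted p under 0.05. DESeq2 called 3 genes, none of them a member. Gclm was at 0.08 ± 0.20 (95% interval -0.35 to 0.50), Gss at -0.34 ± 0.29 (-0.96 to 0.29) and Hmox1 at -0.39 ± 0.78 (-2.05 to 1.26), each with q = 1. The RT intervals of Gclm and Gss do not reach the values these genes had between genotypes in cold, while that of Hmox1 holds its cold value. Those cold values had passed the threshold and carry intervals of their own (-0.98 to -0.35 for Gclm, 0.35 to 1.32 for Gss). Whether the genotype difference itself differs between RT and cold was tested directly, as given below, and passed for neither (q = 0.438 and 0.413). Cth was higher in each KO RT than in each control RT library, at 0.44 ± 0.86 (q = 1).

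Cold was compared with RT within each genotype to ask how these genes respond to 6 h at 4 °C. In control mice 4 of the 8 tested members rose (Chac1, Cth, Gclm and Hmox1) and the other 4 did not pass, where 25.2% of all tested genes passed, 12.7% higher and 12.6% lower. In KO mice 5 of 8 rose (Chac1, Cth, Gss, Hmox1 and Slc7a11) and 3 did not pass, where 18.9% of all passed, 9.43% higher and 9.45% lower. Chac1 (1 to 5 counts per RT library) and Slc7a11 (0 counts) had enough counts to be tested only through the cold libraries. For both a fall with cold could not be seen, which limits a reading of the counts of members beside the shares of all genes. The rise in control and the genotype comparison in cold share the control cold libraries, and the rise in KO shares the KO cold libraries. Of the 8 fibroblast and preadipocyte markers, 5 fell with cold in KO and 0 passed in control, and their part in the counts of members was not tested. The control comparison rests on 2 RT libraries. Without control RT 1 the genes called in it fell from 2793 to 1067.

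Hmox1 rose from 9.99 ± 6.33 CPM (SD, n = 2) to 108 ± 66.3 CPM (SD, n = 4) in control (3.48 ± 0.61, q = 0.000711) and from 7.22 ± 2.69 CPM (SD, n = 3) to 34.1 ± 15.9 CPM (SD, n = 4) in KO (2.22 ± 0.57, q = 0.0117). In control the change was 2.88 without control RT 1 and 4.28 without control RT 2. In KO the q was 0.0520 without KO RT 2.

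Cth rose from 11.3 ± 1.04 CPM to 134 ± 87.9 CPM in control (3.56 ± 0.74, q = 0.00258) and from 15.2 ± 3.07 CPM to 116 ± 53.1 CPM in KO (2.92 ± 0.60, q = 0.00280). Both calls held whichever library was left out. Chac1 had 3 counts over both control RT libraries, and the ratio of control cold to control RT was 31.2 (95% counting interval 10.5 to 153, q = 0.00713, but 0.0732 without control RT 1). That counting interval leaves out the spread between libraries, and the model gave 4.86 ± 1.19 (log2, 95% interval 2.35 to 7.38). In KO Chac1 rose from 1.78 ± 1.097 CPM to 27.7 ± 13.3 CPM (3.91 ± 0.85, q = 0.00419). Chac1 in control cold 3 (1.24 CPM) lay within the range of KO RT, and no other cold library did so.

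Slc7a11 was at least 5.80-fold higher in control cold than in control RT and at least 11.3-fold higher in KO cold than in KO RT, taking 3 counts over the RT group as the limit. The control comparison did not pass (q = 0.110). Without a filter on low counts its q was 5.04e-05 at the same log2 change (6.05). It rests on 29 counts over control cold, 20 of them in control cold 4. Without both control cold 3 and KO cold 4 its q was 0.0247. Those are the cold libraries at 0 counts and were chosen after values were seen, so leaving them out favours a rise and adds no support. The KO comparison passed at q = 0.0497. It was lost without control cold 1, KO cold 1, 2 or 3 or any KO RT library (q up to 0.125) and with DESeq2 (q = 0.0843). Both genotypes had 1 cold library at 0.

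Gclm rose from 52.8 ± 6.55 CPM to 107 ± 14.6 CPM in control (1.01 ± 0.19, q = 0.00134), whichever library was left out. In KO it was at 55.9 ± 12.6 CPM at RT and 67.4 ± 7.94 CPM in cold and did not pass (0.27 ± 0.17, q = 0.285, 95% interval -0.08 to 0.62). Gss was at 14.9 ± 3.58 CPM at RT and 11.4 ± 2.42 CPM in cold in control (-0.37 ± 0.28, q = 0.366) and rose from 11.6 ± 3.91 CPM to 20.4 ± 1.89 CPM in KO (0.80 ± 0.24, q = 0.0287). The rise of Gss in KO was lost (q = 0.0531 to 0.132) without KO cold 3 or 4 or KO RT 1 or 2, and with DESeq2 (q = 0.0528). Gclc and Gsr passed in neither genotype.

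The difference between the cold responses of KO and control was tested directly. By edgeR, 0 of 8 members passed, where 0.0181% of all genes passed (0% higher, 0.0181% lower). An unadjusted p under 0.05 was found for 913 genes. DESeq2 called 29 genes, none of them a member. The 2 members with an unadjusted p under 0.05 were Gss (1.17 ± 0.37, q = 0.413) and Gclm (-0.74 ± 0.25, q = 0.438). Hmox1 was at -1.26 ± 0.88 (q = 0.773), Cth at -0.64 ± 0.97 (q = 0.912) and Chac1 at -0.95 ± 1.95 (q = 0.941). A cold response of Gclm in control only, or of Gss in KO only, is therefore not shown by this test.

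Genes around the members were counted in 7 lists that were chosen with earlier results of these data known. For comparison, 12.7% of all tested genes rose and 12.6% fell with cold in control. In KO 9.43% rose and 9.45% fell. Of 26 tested ATF4 and CHOP targets, not counting members, 18 rose with cold in control and 8 did not pass, and 18 rose, 1 fell and 7 did not pass in KO. Their median log2 change was 1.29 in control and 1.40 in KO, against -0.02 and -0.01 over all genes tested. Examples in KO were Trib3, a pseudokinase induced by ER stress (3.83 ± 0.64, q = 0.000618), Atf5 (1.62 ± 0.21, q = 1e-04) and Slc3a2, the heavy chain that partners the Slc7a11 product (2.54 ± 0.40, q = 0.000412). The rises include Fgf21 (at most 1 count per RT library), Gdf15 (at most 5) and Slc7a5 (RT means of 1.21 CPM in control and 0.720 CPM in KO). These were tested only through their cold libraries and could not be seen to fall. Without control RT 1 the 18 rises in control became 2, and without KO RT 1 the 18 in KO became 11. The skeletal muscle marker sum was highest in these 2 libraries, and its part in the counts was not tested.

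The median of these 26 genes over their RT mean was 0.51 (log2) in control cold 3 and 0.40 in KO cold 4, against 1.09 to 1.84 in the other 6 cold libraries. Those are the 2 libraries with the lowest Chac1, Cth and Slc7a11. Hmox1 shared part of this order, with control cold 3 (50.8 CPM) the lowest of control cold and KO cold 4 (11.9 CPM) the lowest of all cold libraries. Gclm did not share it in control, where control cold 3 (98.5 CPM) lay inside the range of the group. In KO, Gclm in KO cold 4 (63.2 CPM) was barely above the lowest library, KO cold 1 (63.0 CPM). In KO against control in cold, 1 of the 26 was higher, Shmt2, of mitochondrial serine use (1.36 ± 0.29, q = 0.0113), and 1 lower, Atf3, a stress-induced factor (-2.17 ± 0.50, q = 0.0163, but 0.0515 without KO cold 4). Those higher became 3 without control cold 4 or KO cold 4 and 2 without either control RT library. Atf4 itself was at 585 ± 234 CPM in control cold against 468 ± 158 CPM for KO cold (-0.32 ± 0.32, q = 0.635).

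**Figure D3:**
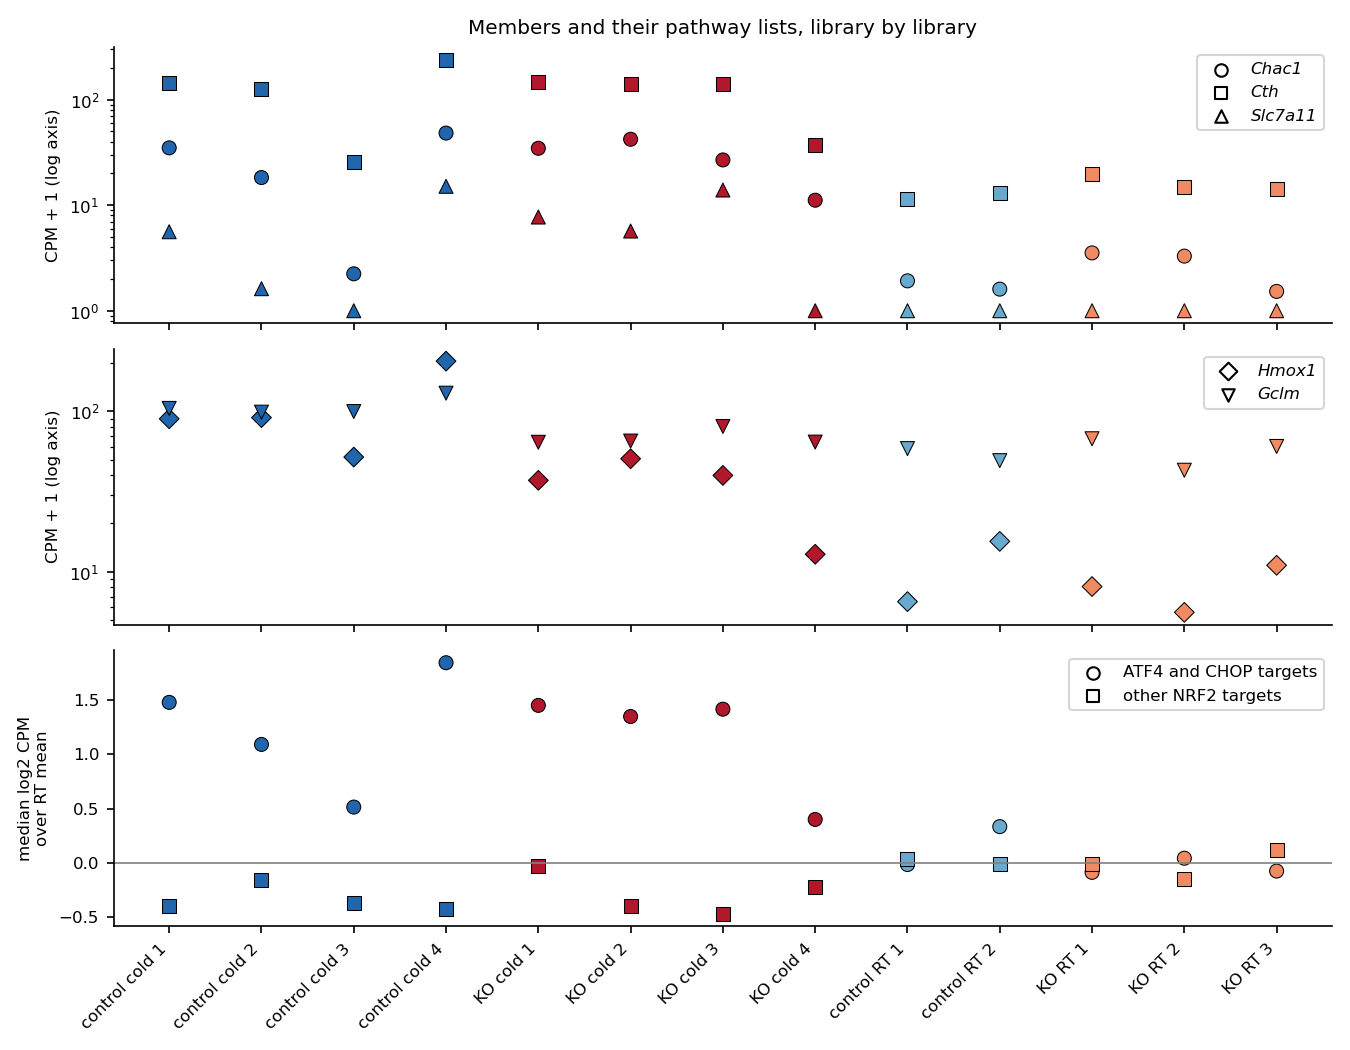
Level of Chac1, Cth and Slc7a11 (top) and of Hmox1 and Gclm (middle) as CPM + 1 on log axes, and the median log2 CPM over the RT mean of 26 ATF4 and CHOP targets and 27 other NRF2 targets (bottom), in each of the 13 libraries (x axis, 1 colour per group). Control cold 3 and KO cold 4 are the lowest cold libraries for Chac1, Cth, Slc7a11 and the target list.

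NRF2 targets other than the members moved in both directions with cold, as the tested genes did as a whole. Of all tested genes 12.7% rose and 12.6% fell in control, and 9.43% rose and 9.45% fell in KO. Of 27 tested, 6 rose and 7 fell in control (1 and 2 without control RT 1, and 4 falls without control RT 2), and 4 rose and 8 fell in KO, with medians of -0.37 and -0.20. In KO the rises became 1 without KO cold 1 or 3 or any KO RT library, and the falls became 4 or 5 without KO cold 2 or 3 or KO RT 1 or 3. In control Srxn1, which repairs oxidised peroxiredoxins, rose from 76.1 ± 25.0 CPM to 212 ± 76.7 CPM (1.47 ± 0.26, q = 0.000943), and Ftl1, the ferritin light chain that stores iron, also rose (1.25 ± 0.26, q = 0.00238, but 0.0594 without control RT 1). Cbr1, a carbonyl reductase, fell (-1.002 ± 0.19, q = 0.00113), as did the exporter gene Abcc1 (-1.28 ± 0.24, q = 0.00135). In KO against control in cold, Txnrd1, thioredoxin reductase, was lower (-0.47 ± 0.13, q = 0.0461) and Abcc4, an exporter, was higher (0.68 ± 0.19, q = 0.0433), and these calls held in 3 and 6 of the 13 fits that left out 1 library. Srxn1 was at -0.65 ± 0.20 (q = 0.0654).

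Among 15 tested genes of NRF2 and its regulators, 4 rose and 4 fell with cold in control and 2 rose and 2 fell in KO. Of all tested genes 25.2% passed with cold in control and 18.9% in KO, in equal parts higher and lower. Without control RT 1 the control counts were 1 and 1, and without control cold 4 the falls in control were 2. The KO counts ran from 1 to 4 and from 0 to 2 over the fits that left out 1 library, moving with most of the 13. Nfe2l2, which encodes NRF2, passed in no contrast, at 132 ± 14.1 CPM in control cold against 126 ± 10.5 CPM for KO cold, with RT means of 98.5 ± 37.2 CPM (control) and 101 ± 11.5 CPM (KO). Keap1 and Bach1, a repressor of Hmox1, passed in no contrast either. Maff, a small MAF partner of NRF2, rose from 4.09 ± 1.88 CPM to 54.2 ± 11.3 CPM in control (3.75 ± 0.32, q = 3.06e-06) and from 2.99 ± 1.24 CPM to 37.4 ± 3.81 CPM in KO (3.60 ± 0.29, q = 1.59e-06). At these RT levels Maff was tested only through its cold libraries, so a fall with cold could not be seen. In KO against control in cold only Btrc, a ubiquitin ligase subunit, passed (1.17 ± 0.33, q = 0.0439), and it held in 3 of those 13 fits.

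Of 17 tested genes of cysteine and methionine supply, 3 rose and 3 fell with cold in control and 4 rose and 2 fell in KO. Beside this list and the next, 25.2% of all tested genes passed with cold in control and 18.9% in KO. Got1, a cytosolic aspartate aminotransferase, rose in both (3.38 ± 0.25 in control, q = 8.2e-07, and 3.42 ± 0.22 in KO, q = 1.42e-07), and Slc1a5, a glutamine transporter, fell in both (-1.91 ± 0.17, q = 3.93e-06, and -1.51 ± 0.16, q = 1.01e-05). In KO against control in cold Tst, a mitochondrial sulfurtransferase, was higher (1.17 ± 0.20, q = 0.00202) and Got1 was lower (-0.61 ± 0.16, q = 0.0308, held in 7 of 13 such fits). The 2 falls with cold in KO became 1 without KO cold 2 or 3 or KO RT 1 or 2. Of 12 tested genes of other glutathione breakdown and turnover, 2 rose and 2 fell in control and 3 rose and 2 fell in KO. The rises in control became 1 without control RT 2, the falls in control 1 without control cold 2 or 3 or control RT 1, and those in KO 1 without KO cold 1, 2 or 4 or KO RT 1 or 3. Dpep1, a dipeptidase of extracellular glutathione breakdown, rose in both (1.33 ± 0.31, q = 0.00573, and 1.08 ± 0.26, q = 0.00886). Abcc4, which is on this list too, was the only 1 of the 12 to pass in KO against control in cold.

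Of 30 tested glutathione peroxidases, glutaredoxins and transferases, 2 rose and 4 fell with cold in control, and 4 fell in KO. Beside this list and the next, 25.2% of all tested genes passed with cold in control and 18.9% in KO. The rises in control became 1 without control cold 2 or either control RT library, and the falls 1 or 2 without control cold 1 or either control RT library. The falls in KO became 1 or 2 without control cold 1, KO cold 2, 3 or 4 or any KO RT library. In KO against control in cold, Glrx, a glutaredoxin that removes glutathione from proteins, was lower (-0.91 ± 0.19, q = 0.00822), as was Gpx8, an ER peroxidase (-0.91 ± 0.19, q = 0.00940). Both passed whichever library was left out. Of 20 tested thioredoxin, peroxiredoxin, catalase and superoxide dismutase genes, 6 rose and 2 fell in control (1 rose without control RT 1, and 1 fell without control RT 2) and 6 rose and 4 fell in KO. Prdx6, a peroxiredoxin that uses glutathione, rose in both (0.93 ± 0.20, q = 0.00361, but 0.0667 without control RT 1, and 1.16 ± 0.18, q = 0.000312). In KO against control in cold Cat, catalase, was higher (0.52 ± 0.13, q = 0.0257, held in 9 of 13 such fits) and Txnrd1, also on this list, was lower.

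**Figure D4:**
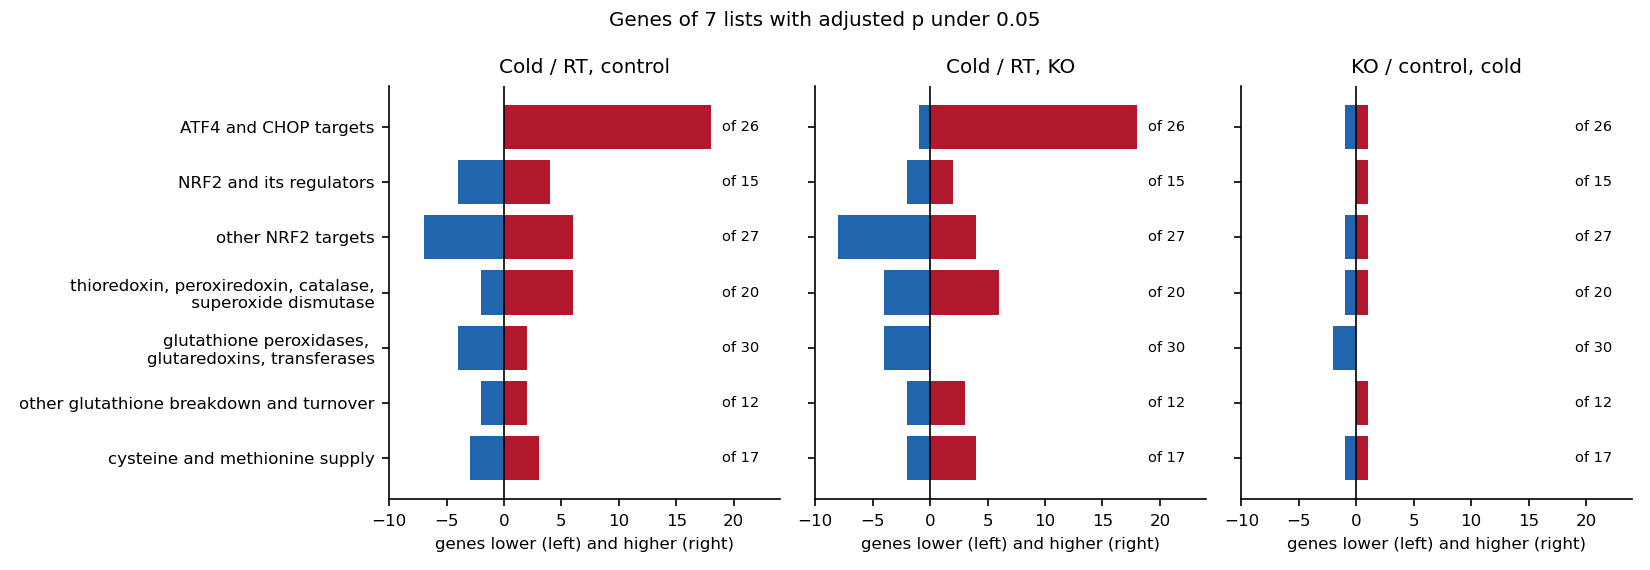
Number of genes of each of 7 lists that were lower (left) or higher (right) at an adjusted p under 0.05 (x axis) in 3 comparisons, beside the number tested. ATF4 and CHOP targets had 18 rises with cold in each genotype, where 12.7% (control) and 9.43% (KO) of all tested genes rose. Each list had 1 or 2 genes past the threshold in KO against control in cold, where 5.93% of all tested genes passed.

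The genes whose log2 CPM was most like that of a member over the 13 libraries were sought among 10154 candidates with a mean of at least 5 CPM, as a description. For Chac1 they were Trib3, Gabpa and Eprs (Pearson's r 0.98, 0.97 and 0.96), and for Cth they were Fgf21, Ifrd1 and Gm11714 (0.98, 0.98 and 0.97). For Hmox1 they were Slc20a1, Naa50 and Cct3 (0.98, 0.98 and 0.97), for Gclm Pank1, Rchy1 and Gmfb (0.96, 0.95 and 0.94), and for Slc7a11 Tars, Rhbdd1 and Phf10 (0.95, 0.94 and 0.94). For Gss the closest were Exosc10, Prkce and Rpn1, with lower values (0.88, 0.81 and 0.81). Between members over the 13 libraries, r was 0.97 for Chac1 with Cth, 0.87 for Gclm with Hmox1 and -0.12 for Gclm with Gss. Hmox1 was about as close to Cth (0.86) as to Gclm, and at 0.75 with Chac1. Over the 8 cold libraries r was -0.80 for Gclm with Gss, 0.84 for Gclm with Hmox1 and 0.61 for Cth with Hmox1. The values over 13 libraries share the contrast of cold with RT, those over the cold libraries share the contrast of genotypes, and the libraries are the same for every gene.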

How the data were processed

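RNA of brown adipose tissue was measured in 13 libraries made with a QuantSeq 3′ kit, per the labels' protocols. The values are raw counts per Ensembl gene as deposited by the authors. Named per the submitters' processing notes are HTSeq 0.12.3, STAR 2.7.10b, edgeR, UMI-tools 1.1.2, limma, the build GRCm39 and Trim Galore 0.6.7. For their parameters, the collapse of molecular identifiers and the use of strand nothing is stated in the sources, so overlapping genes cannot be separated and counting intervals cover counting error only. Of 55632 lines, 275 repeated identifiers were dropped.

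Counts were tested with edgeR 4.0.16 (R 4.3.3): filterByExpr with a minimum count of 10, TMM scaling, 1 quasi-likelihood fit of all 13 libraries with a coefficient per group (common biological coefficient of variation 16.1%), 5 two-sided contrasts and Benjamini-Hochberg adjustment over 11073 genes. CPM use TMM library sizes, and correlations use log2 CPM with a prior count of 2. The script was tested on simulated data. Alternatives were relative log expression scaling, DESeq2 1.42.0, no filter, a minimum count of 30, fits of the compared groups only, a replicate block, and leaving out each library. Named were all members, up to 4 genes of each list with the smallest p among those past the threshold, and the 3 genes most like each member that passed; Nfe2l2, Keap1, Bach1, Atf4 and the value of Srxn1 between genotypes were added after values were seen. The members and lists were chosen with earlier results of these data known.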

Additional observations from a re-analysis of the deposited data

Results flagged for a closer look

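Within groups of 4 libraries, 3 values stood apart from the rest of their group by Dixon's criterion, of 20 groups of members tested. Chance alone gives about 1 in 20. Cth in KO cold 4 was at 36.1 CPM, with the nearest library of the group at 139 CPM. Gclc in control cold 4 was at 76.9 CPM, with the nearest at 43.4 CPM. Gclm in KO cold 3 was at 79.3 CPM, with the nearest at 64.2 CPM.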

How the results depend on the processing

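With DESeq2, members higher in KO against control in cold numbered 0, members higher in cold against RT in KO 3, all genes called in KO against control at RT 3 and in the difference of cold responses 29. Without a filter on low counts the last 2 counts were 50 and 133. Fitting only the compared groups gave 1685 genes in cold against RT in control. Without both control cold 3 and KO cold 4, an alternative chosen after seeing the data, KO against control in cold called 345 genes, with 0 members higher and 1 lower.

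Leaving out each library in turn, all genes called ranged from 392 to 716 in KO against control in cold, 0 to 3 at RT, 1067 to 2821 in cold against RT in control, 1219 to 2271 in KO, and 0 to 4 in the difference of cold responses. Members ranged from 0 to 1 higher and 1 to 2 lower in KO against control in cold, and from 3 to 4 and 2 to 5 higher with cold in control and KO. Signs turned only for members that had not passed, over log2 ranges in KO against control in cold of -0.23 to 0.65 for Chac1, -0.55 to 0.23 for Cth, -0.29 to 1.72 for Slc7a11 and -0.080 to 0.25 for Gsr. At RT these were -0.067 to 0.24 for Gclm, -0.99 to 0.40 for Hmox1 and -0.31 to 0.11 for Gclc. In cold against RT they were -0.36 to 0.21 for Gsr in control and -0.091 to 0.33 for Gclc in KO, and in the difference of cold responses -0.46 to 0.055 for Gclc and -0.49 to 0.082 for Gsr. The cause was not tested.

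Replicate numbers did not pair the libraries: the correlation of deviations was above 0.1 in 3 of 16 same-numbered pairs (-0.23 to 0.33), and 1 of 8 cold libraries correlated best with its own number. With the replicate block, members lower in KO against control in cold numbered 1 (Hmox1 at q = 0.0531), Abcc4 and Txnrd1 did not pass there, Slc7a11 did not pass in cold against RT in KO (q = 0.1), and the difference of cold responses called 0 genes.

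Depth limits Nqo1, Cbs and Slc7a11 most, with at most 6, 13 and 23 counts per library.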
